A study of Rattus norvegicus with 16 samples.

Results

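Unnamed transcribed loci are rows of the expression tables that carry a locus number but no gene symbol. They were taken separately from the table of the hippocampal CA1 field and from that of white blood cells (WBC), as rows with a mean of at least 1 FPKM over the 8 libraries of the tissue and a status of OK in all 8. FPKM is the number of fragments scaled to transcript length and library size. The rule found 7986 loci among 50810 rows, 3805 of 26031 in CA1 and 4181 of 24779 in WBC. In CA1 8207 rows (31.5%) had no symbol, and in WBC 7054 (28.5%), so the rule kept 46.4% and 59.3% of them. In CA1 10 further rows reached the mean but did not have an OK status throughout, and in WBC there were 0 such rows. The loci were thus chosen by their mean level and status, so both are described here without a test. The mean ran over both groups, so a locus could meet the rule through 1 group alone. Among loci described below for a difference, 1 group had a mean under 1 FPKM at these. They are XLOC_003441, XLOC_003254, XLOC_025019 and XLOC_019901 in CA1, and XLOC_013226, XLOC_011571, XLOC_008779, XLOC_017750, XLOC_007965 and XLOC_015912 in WBC. At the threshold, XLOC_021845, XLOC_010638 and XLOC_017356 in CA1 lay just inside, all at a mean of 1.00 FPKM, and XLOC_007372, XLOC_014008 and XLOC_009870 lay just outside, at 0.998, 0.998 and 0.996 FPKM. In WBC XLOC_007013, XLOC_017722 and XLOC_002963 had means of 1.00 FPKM, and XLOC_008248, XLOC_001574 and XLOC_003233 had 0.999, 0.999 and 0.998 FPKM.

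Male Sprague-Dawley rats of 200 to 240 g received either a fluid percussion injury, a model of traumatic brain injury (TBI) in which a pressure pulse strikes the dura, or sham surgery. Learning was tested 1 week after surgery, and CA1 and blood were then collected. The sources used here do not give their age. RNA-seq libraries came from about 1000 ng of total RNA after poly-A selection and random priming, with 4 sham and 4 TBI libraries from CA1 and as many from WBC, 4 groups in all. The labels number the libraries but do not say that equal numbers belong to 1 rat, so a p-value reflects the spread among these samples alone.

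Programs that assemble transcripts from aligned reads join overlapping reads into loci, and then look for an annotated gene at the same place. A locus that matches none keeps only its number. Such loci can hold noncoding RNAs, untranslated ends of nearby genes, copies of processed genes, repeats, or genes that the annotation of the time lacked. Because FPKM divides by length, a short locus can reach a high value from few fragments. The tables give no length, position, strand or exon structure for any of these loci, so no sequence is shown and levels between loci are not levels per molecule.

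The locus number is the only other information about place. Numbers mostly followed gene order. Of the rows with a symbol, 93.1% in CA1 and 93.2% in WBC matched a protein-coding gene of a later rat assembly (GRCr8). Consecutive matched rows lay on the same chromosome in 98.4% of pairs in both tissues, and within 5 genes of each other in 84.5% and 84.4%. Where a reference list gave the strand, consecutive symbol rows lay on the same strand in 88.8% of cases in CA1 and 89.8% in WBC. A gene on the other strand can therefore lie nearer to a locus than the symbols named beside it, which are neighbours by number only. Unnamed rows formed 2269 runs of consecutive numbers in CA1 and 1663 in WBC, of which 1539 and 1145 were single rows between symbols. A small number of runs were much longer. In CA1 26 runs held 44 to 389 unnamed rows each, and the next shorter run held 16. In WBC 31 runs held 30 to 498, and the next shorter held 28. The chromosome of the surrounding symbols changed across 25 of these 26 long runs in CA1 and 29 of 31 in WBC. For rows inside a long run the number therefore gives no gene neighbours. The long runs held 1629 of the CA1 loci (42.8%) and 1993 of the WBC loci (47.7%), and the other 2176 and 2188 loci lay in short runs between symbols. The 2 kinds are called long-run loci and loci between symbols below.

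Unnamed loci had lower levels than rows with a symbol for the most part, with a small number of extreme values. The median was 5.06 FPKM in CA1, against 12.1 for the 10832 rows with a symbol that met the same level and status, and 4.46 against 11.1 for 9232 such rows in WBC. Levels under 2 FPKM were found for 23.9% of CA1 and 25.4% of WBC loci, against 8.94% and 8.50% of symbol rows. At the other end, 37 CA1 loci and 41 WBC loci exceeded 1000 FPKM, and 35 and 38 of these were long-run loci. The 10 highest tested rows of CA1 were all unnamed, as were 9 of the 10 highest in WBC, and all of these lay in long runs. Rows with a status of HIDATA (too many fragments) in any library were not tested and are missing from this ranking. There were 5 such rows in CA1, 0 of them unnamed, and 10 in WBC, 1 of them unnamed. Loci between symbols made up 2 of the 100 highest tested CA1 rows and 5 of the 100 highest tested WBC rows.

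**Figure D1:**
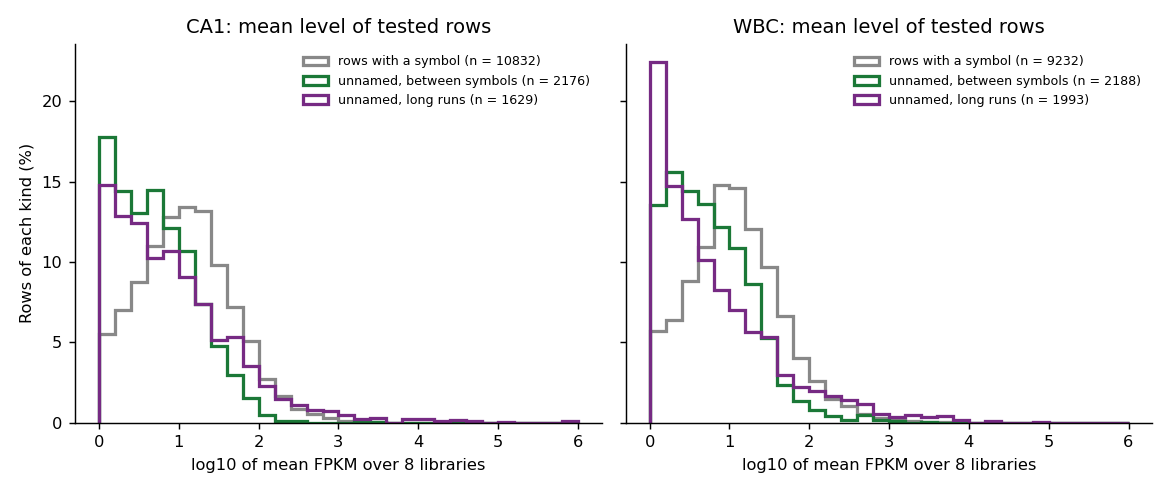
Histograms of log10 mean FPKM over the 8 libraries of CA1 (left) and WBC (right), as the percentage of rows of each kind, for rows with a symbol (grey), unnamed loci between symbols (green) and unnamed loci in long runs (purple). Both unnamed kinds are most frequent at the low end, below the symbol rows, and the long-run loci reach the highest levels, 825539 in CA1 and 84521 in WBC.

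The highest CA1 locus was XLOC_005288, with a mean of 825539 FPKM and libraries from 535178 to 1036660. XLOC_007576 followed at 685253, and XLOC_013617, XLOC_016649, XLOC_016659 and XLOC_013543 at 119512, 57000, 53174 and 39779. The highest tested row with a symbol stood at 3088 FPKM in CA1. In WBC XLOC_002841 had the highest mean, 84521 FPKM. It was listed at 0 in TBI 1 and lay between 54828 and 130766 in the other 7 libraries. XLOC_005267 (21904), XLOC_016020 (18430), XLOC_024690 (8996), XLOC_013081 (8288) and XLOC_013908 (7136) came next among unnamed loci, and the highest tested symbol row stood at 7885. Sham and TBI libraries overlapped at every one of these 12 loci.

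The 6 highest loci held 62.8 to 77.6% of the summed FPKM of all tested rows per library in CA1 and 10.7 to 25.04% in WBC. All unnamed loci together held 84.4% ± 3.97 (SD, n = 4) of that sum in CA1 sham libraries and 83.4% ± 4.39 in CA1 TBI. In WBC they held 47.2% ± 2.24 in sham and 48.3% ± 5.16 in TBI. The groups overlapped in both tissues, and the difference was smaller than the spread between libraries. Loci between symbols accounted for only 1.24% of the sum in CA1 sham and 1.205% in CA1 TBI, and for 5.70% and 5.65% in WBC. In WBC the summed FPKM of the loci between symbols was 40707 to 46894 in the sham libraries and 31339 to 38839 in the TBI libraries, without overlap. As a share of the sum over all tested rows the groups did overlap, at 5.35 to 6.09% in sham and 4.71 to 6.58% in TBI. The sum over all WBC rows was also lower on average in TBI, at 482286 to 832725 against 727296 to 828289, with overlap. In bulk tissue, fewer cells of a type and less RNA per cell cannot be told apart. These sums are also relative to library size, and how that was normalized is not given. A lower sum therefore does not by itself show either, and its cause was not tested.

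Among loci between symbols, those with the highest mean were chosen after their values were seen. In CA1 XLOC_007795, numbered next to Rn5-8s (5.8S ribosomal RNA), had 1018, 10668, 6665 and 1956 FPKM in sham 1 to 4 and 0, 7961, 650.3 and 2452 in TBI 1 to 4. Libraries of both groups were high and low, and the groups overlapped. XLOC_024060, between Efhb and Tbc1d5, ranged from 511.4 to 4345 FPKM with the same overlap. XLOC_001795, between Map3k10 and Marcksl1, was steady, at 294.5 to 369.0 FPKM.

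Unnamed loci varied more between libraries of 1 group than symbol rows did. The median within-group SD of log2(FPKM + 0.5) was 0.197 for CA1 loci (0.175 between symbols and 0.231 in long runs) against 0.125 for symbol rows. In WBC it was 0.307 (0.280 and 0.346) against 0.171. Among rows of 10 to 100 FPKM the median SD in CA1 was 0.135 between symbols, 0.176 in long runs and 0.111 for symbol rows, and in WBC 0.187, 0.251 and 0.144. Above 100 FPKM the long-run loci of CA1 reached 0.363, against 0.111 for symbol rows. Pearson's r between 2 libraries of a tissue, taken across loci, which are not independent replicates, was 0.930 to 0.968 over unnamed loci and 0.972 to 0.991 over symbol rows in CA1. In WBC these ranges were 0.866 to 0.938 and 0.928 to 0.983.

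A share of the loci was listed at 0 in some libraries and high in others. At least 1 library stood at 0 for 64 CA1 loci (1.68%) and 184 WBC loci (4.40%), against 0.323% and 0.422% of symbol rows. Of these, 26 of the 64 CA1 and 55 of the 184 WBC loci reached at least 10 FPKM in another library. Among symbol rows with a 0 it was 12 of 35 in CA1 and 18 of 39 in WBC. Of rows with a 0, the share was thus higher for unnamed loci than for symbol rows in CA1 and lower in WBC. The widest within-group spread in CA1 was that of XLOC_016569, listed at 0 in sham 1, sham 3 and TBI 2 and at 1467 to 5050 FPKM in the other 5 libraries. XLOC_016476 was at 0 in sham 2, sham 4 and TBI 4 and at 701.0 to 4033 elsewhere. XLOC_019853 was at 0 in sham 3 only, with 10645 to 47478 in the rest. In WBC XLOC_013081 was at 0 in sham 1, TBI 2 and TBI 3, at 88.2 in TBI 1 and at 1801 to 25947 in the other 4. XLOC_010412 was above 0 only in sham 1 (2471), TBI 1 (14167) and TBI 4 (5306). XLOC_008157 was at 1224, 1218 and 1190 in sham 1, 3 and 4, at 7289 in TBI 2, and at 0 in the other 4. Zeros fell in both groups at each of these 6 loci except XLOC_019853. An exact 0 in a table without counts can be a failed estimate, and whether that was so here was not tested. Per library, 9 to 16 loci were at 0 in CA1 sham, 12 to 20 in CA1 TBI, 41 to 50 in WBC sham and 24 to 42 in WBC TBI.

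In CA1 1 unnamed locus changed after TBI, and it was listed at or near 0 in every sham library. XLOC_003441 had 0, 0, 0.00348 and 0 FPKM in sham 1 to 4 and 10.6, 9.86, 9.11 and 10.8 FPKM in TBI 1 to 4. All 4 TBI libraries lay within a narrow band, far above every sham library. The locus met the level rule only through its TBI libraries, with means of 0.000871 FPKM in sham and 10.1 in TBI. Fitted without a filter on the mean, it had a limma adjusted p of 3.57e-06. In the main fit its difference was 4.40 ± 0.0852 (SE) on the log2(FPKM + 0.5) scale. The limma adjusted p was 9.11e-08 after Benjamini-Hochberg adjustment over all 14637 tested rows. It was the only tested row of either kind that passed 0.05 in CA1 (0.00683% of rows). The size depends on the added constant, since 3 sham values are 0: it was 6.65 with 0.1 FPKM and 3.47 with 1 FPKM. This locus was known from earlier results of these data.

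By number XLOC_003441 is a single unnamed row between Tmem114, a transmembrane protein gene, and Fam86a, a gene of a methyltransferase family. Tmem114 averaged 2.48 FPKM in sham and 1.93 in TBI (-0.30 on the log2 scale). This was opposite to the locus, at an unadjusted p of 0.0364 in limma, and did not pass after adjustment. Fam86a stayed under the level filter, at 0.453 FPKM in sham and 0.689 in TBI. Over the 8 CA1 libraries Pearson's r with XLOC_003441 was -0.71 for Tmem114 and 0.83 for Fam86a, given as a description. Both span sham and TBI, so they take in the difference between the groups. The WBC table holds no unnamed row between these 2 symbols, so the locus has no counterpart by place there.

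No other CA1 locus passed. At an unadjusted p under 0.05, 128 loci were higher and 118 lower in TBI, 246 in all or 6.47% of the 3805, against 5.14% of all tested rows (2.54% higher and 2.6% lower). The groups did not overlap at 115 loci (3.02%), 54 higher and 61 lower in TBI, against 2.88% of all tested rows (1.28% higher and 1.6% lower). The median log2 difference was -0.0119, against -0.00905 for all tested rows. Differences of at least 1 on the log2 scale were found at 66 loci (1.73%) against 0.697% of all tested rows. Long-run loci supplied 47 of the 66, and the wider spread of long-run loci given above accompanies that count.

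**Figure D2:**
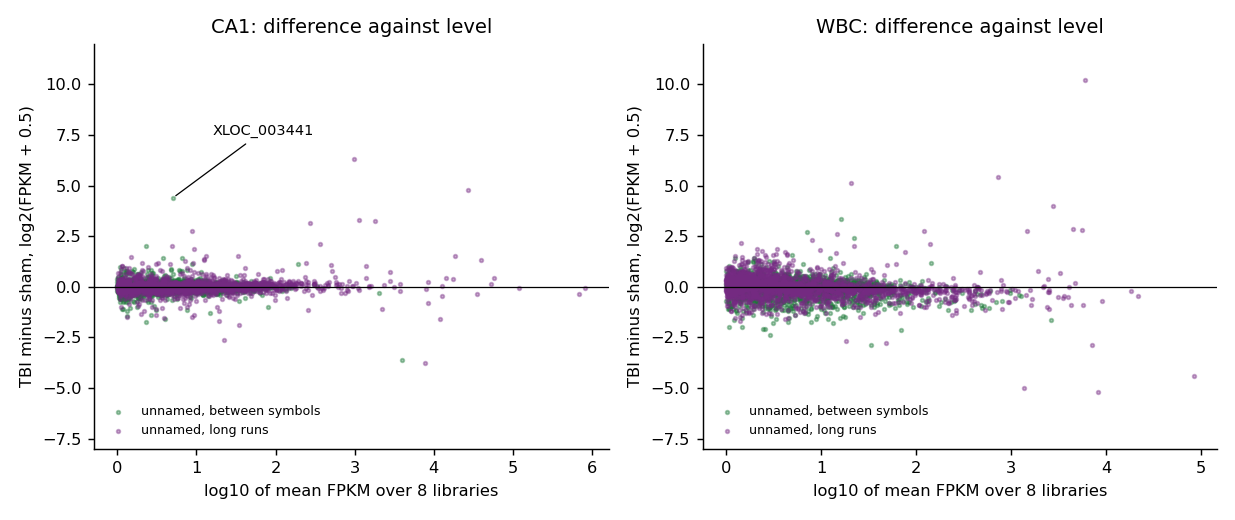
TBI minus sham on the log2(FPKM + 0.5) scale against log10 mean FPKM for the unnamed loci of CA1 (left) and WBC (right), 1 point per locus, green between symbols and purple in long runs. Most points lie near 0, the medians being -0.01 in CA1 and 0.00 in WBC, and XLOC_003441 at 4.40 is the only point that passed the limma test, while larger differences belong to long-run loci with zeros in some libraries.

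The CA1 loci next in p did not pass, with limma adjusted p from 0.402 to 0.891. XLOC_025813, a long-run locus, had 2.26, 2.85, 2.91 and 2.76 FPKM in sham and 7.46, 5.35, 5.01 and 8.61 in TBI. The groups did not overlap, and the difference was 1.13 ± 0.167 (SE, log2 scale; limma adjusted p = 0.402). XLOC_006262, between Cldn4 (a tight junction protein) and Eln (elastin), had 1.30, 1.38, 1.38 and 1.47 FPKM in sham and 2.23, 2.81, 1.97 and 2.35 in TBI, again without overlap. Eln itself differed by -0.12 on the log2 scale. XLOC_003809, between Med31 (a Mediator subunit) and Fbxo39, was 0.67 higher on the log2 scale, while Med31 differed by 0.10. The long-run loci XLOC_003254, XLOC_003191, XLOC_025019 and XLOC_016386 were 1.05, 1.16, 0.69 and 0.27 higher on that scale, and XLOC_009151 and XLOC_018176 were 1.19 and 1.18 higher. At XLOC_009151 sham 4 was far below the other sham libraries (43.3 against 205.6 to 215.0 FPKM), and without it the difference was 0.62. Among these higher loci, only XLOC_025019 had overlapping groups.

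Among CA1 loci with lower TBI levels, XLOC_007601, a long-run locus, had the widest difference of those at an unadjusted p under 0.05 whose groups did not overlap. It had 18.1, 7.02, 14.4 and 16.001 FPKM in sham and 4.03, 4.06, 5.99 and 4.64 in TBI. Sham 2 was the lowest of its group and still above every TBI library. The difference was -1.41 ± 0.270 (SE, log2 scale), with a limma adjusted p of 0.710. Without sham 2 it was -1.70 and passed, at a limma adjusted p of 0.0284. Leaving out the library nearest to the other group favours a smaller p by construction, so the call is no separate evidence. XLOC_007243 lies between Nfasc, the gene of neurofascin, an adhesion protein of the axon initial segment, and Mdm4, a regulator of p53. It had 3.05, 3.05, 3.32 and 3.21 FPKM in sham and 1.83, 1.06, 2.01 and 1.98 in TBI, without overlap. The differences of Nfasc (-0.05) and Mdm4 (-0.01) on the log2 scale were small beside the -0.75 of the locus. XLOC_012203, in a run of 5 between Nup155 (a nuclear pore protein) and Nadkd1, differed by -1.15, and XLOC_012445, between Mef2d (a neuronal transcription factor) and Mir9-1, by -0.29. XLOC_000167, XLOC_013680, XLOC_019901 and XLOC_022539 differed by -0.56, -0.41, -0.87 and -1.08. None of these loci had overlapping groups, and none passed.

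**Figure D3:**
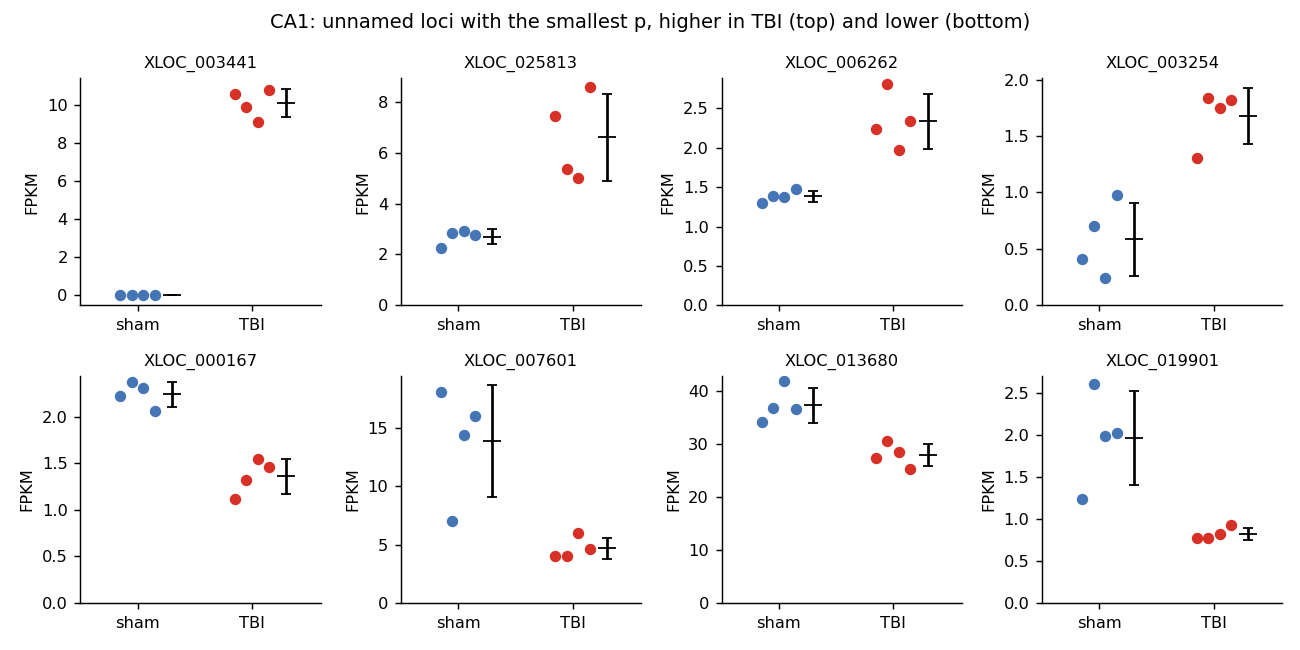
FPKM per library for the 4 CA1 loci with the smallest p that were higher in TBI (top) and the 4 that were lower (bottom), with sham in blue, TBI in red and the mean ± SD (n = 4) as a black bar. The groups separate in all 8 panels, but only XLOC_003441, with sham at 0 to 0.00348 and TBI at 9.11 to 10.8, passed the adjusted threshold.

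In WBC 0 of 4181 unnamed loci passed a limma adjusted p of 0.05, as did 0 of all 13413 tested rows (0%). At an unadjusted p under 0.05 there were 821 loci (19.6%), 356 higher and 465 lower in TBI, against 20.3% of all tested rows (7.82% higher and 12.5% lower). The groups did not overlap at 466 loci (11.1%), 208 higher and 258 lower, against 14.2% of all tested rows (5.61% higher and 8.63% lower). The median log2 difference was 0.00151 for the loci and -0.00311 for all rows. The split by direction depended on scaling: 43.4% of the loci at an unadjusted p under 0.05 were higher with the deposited values, 47.1% after median-ratio normalization and 52.6% after quantile normalization. Over all tested rows at that p the share moved likewise, at 38.5%, 42.8% and 56.5%, so the shift is not particular to unnamed loci. Differences of at least 1 on the log2 scale were found at 223 loci (5.33%), against 3.15% of all rows.

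Some other measurements moved with the groups in WBC. Markers of red cell precursors summed to 13746 to 21198 FPKM in sham and 5424 to 12997 in TBI, with 17 of 17 tested markers lower in TBI (median -1.03, log2 scale). Platelet markers summed to 8330 to 11171 in sham and 2588 to 7646 in TBI, with 12 of 12 lower (median -0.90). Cytotoxic cell markers were higher at 11 of 13 (median 0.36), with overlapping sums of 765.4 to 1081 and 794.6 to 1354. All 13 leukocyte markers found in WBC were tested there. Of these, 6 were higher and 7 lower in TBI (median -0.07, log2 scale), 0 of them at an unadjusted p under 0.05. Their sums overlapped, at 3003 to 3345 FPKM in sham and 2428 to 3624 in TBI. In CA1 9 of 10 CA1 neuron markers were tested, and Fibcd1 was listed at 0. Of those 9, 8 were lower in TBI (median -0.17, log2 scale), 1 of them at an unadjusted p under 0.05, with sums of 6003 to 7840 FPKM in sham and 6107 to 6585 in TBI. In CA1 choroid plexus markers summed to 80.2 to 1462 FPKM in sham and 240.6 to 2895 in TBI, with 10 of 12 tested markers higher in TBI and Otx2 at 0. None of these marker genes passed the adjusted threshold in limma, and their part in the differences at unnamed loci was not tested. A principal component analysis over the WBC loci placed sham libraries from -22.1 to -9.98 along its leading axis (26.8% of variance). TBI 2 to 4 fell between -0.58 and 17.3, and TBI 1 was farthest out, at 38.5. Over the CA1 loci (22.9%) sham 3 stood apart at 28.4, beyond the range of -13.5 to 6.01 of the other 7.

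The WBC locus nearest to the threshold was XLOC_013226, a long-run locus. It met the level rule only through its TBI libraries, with means of 0.806 FPKM in sham and 4.03 in TBI. It had 0.766, 0.955, 0.770 and 0.731 FPKM in sham and 3.29, 3.95, 5.62 and 3.25 in TBI. All TBI libraries were above all sham libraries. The difference was 1.77 ± 0.178 (SE, log2 scale), with a limma adjusted p of 0.0878. XLOC_011570 and XLOC_011571 have consecutive numbers in 1 long run. The first had 0, 7.56, 0 and 0 FPKM in sham and 19.0, 74.3, 37.7 and 28.6 in TBI. The second had 0.424, 0, 0 and 0.396 in sham and 2.76, 4.40, 1.51 and 2.13 in TBI. Both separated the groups, by 5.16 ± 0.918 and 2.17 ± 0.342 (SE, log2 scale), and both had a limma adjusted p of 0.127. With 0.1 FPKM added in place of 0.5, XLOC_011571 differed by 3.53. This locus, too, met the level rule only through its TBI libraries, with a sham mean of 0.205 FPKM. Without sham 2, the only sham library above 0, XLOC_011570 passed, at 6.16 with a limma adjusted p of 0.0120. That library goes against the difference, and without it sham is at 0 throughout. Leaving it out favours a smaller p by construction, so the call is no separate evidence.

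Several WBC loci between symbols were higher in TBI without passing, each with a limma adjusted p of 0.127. XLOC_008782, between Rcbtb1 and Cdadc1, had 8.25, 9.71, 8.87 and 8.49 FPKM in sham and 12.4, 17.9, 16.8 and 23.8 in TBI. Its groups did not overlap (0.93 ± 0.173, SE, log2 scale). Rcbtb1 was higher too, by 0.53 on that scale (unadjusted limma p = 0.00116), with r = 0.92 to the locus over the 8 libraries, while Cdadc1 differed by -0.10. That r spans sham and TBI, so it takes in the difference between them. XLOC_013400 is a single row between Brd2, a reader of acetylated histones, and RT1-A2, a rat class I histocompatibility gene. It had 16.3, 17.8, 14.6 and 14.5 FPKM in sham and 24.2, 22.8, 22.8 and 30.5 in TBI, without overlap. RT1-A2, at a mean of 1025 FPKM, differed by -0.09 on the log2 scale. XLOC_024242, in a run of 4 before Fhl1 (a LIM-domain protein), was 0.55 higher, and Fhl1 differed by -0.97. The remaining loci named for higher TBI levels were XLOC_023726 (0.81), XLOC_002824 (0.73) and XLOC_020186 (2.30, limma adjusted p = 0.158). The last was at 0 in sham 2, and without that library it was 1.52 higher.

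Among WBC loci with lower TBI levels, XLOC_007290 lies between Mixl1 (a homeobox gene) and Ephx1 (microsomal epoxide hydrolase). It had 81.8, 74.97, 72.5 and 55.3 FPKM in sham and 37.9, 34.8, 46.3 and 37.2 in TBI. The groups did not overlap, at -0.85 ± 0.138 (SE, log2 scale; limma adjusted p = 0.127), while Ephx1 differed by 0.13. XLOC_008779 follows a row of the PHD finger genes Phf11 and Phf11b and had 4.59, 2.30, 2.002 and 1.68 FPKM in sham and 0.0742, 0.263, 0.648 and 0.154 in TBI. The locus and the gene row went opposite ways: -1.97 for the locus and 0.79 for the gene row (unadjusted limma p = 0.00547), with r = -0.85 over the 8 libraries. XLOC_003562 follows Galnt10, a mucin-type glycosylation enzyme, and had 55.1, 53.3, 44.4 and 47.2 FPKM in sham and 36.1, 33.0, 30.4 and 34.8 in TBI. Here both were lower, the locus by -0.56 and Galnt10 by -0.93 (unadjusted limma p = 0.0105, r = 0.61). Each r here spans sham and TBI, so it takes in the difference between them.

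XLOC_014133 lies in a run of 28 between the olfactory receptor genes Olr410 and Olr413, both listed at 0 in WBC. It had 29.97, 30.8, 34.2 and 37.7 FPKM in sham and 16.7, 24.2, 16.2 and 15.2 in TBI. TBI 2 was the highest of its group, and without it the difference went from -0.88 to -1.02 and passed, at a limma adjusted p of 0.0460. That library was also the nearest to sham, so leaving it out favours a smaller p by construction. XLOC_008420, between RGD1564324 and Dhrs4 (a carbonyl reductase), had 72.3, 59.7, 39.3 and 45.7 FPKM in sham and 0.762, 22.6, 3.39 and 23.6 in TBI, a difference of -2.88 ± 0.896 (SE, log2 scale; limma adjusted p = 0.151). The other named loci lower in TBI were XLOC_017750 (-1.26), XLOC_005030 (-0.78), XLOC_015870 (-0.50), XLOC_020112 (-0.94) and XLOC_007965 (-2.08), each at a limma adjusted p of 0.127. No pair of groups overlapped at any of them.

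XLOC_007077 and XLOC_015912 were chosen after their values were seen. XLOC_007077, between Cdk18 and Cntn2, had the highest mean of the WBC loci between symbols. It had 3428, 4167, 3770 and 3209 FPKM in sham and 1238, 2115, 2675 and 264.8 in TBI, without overlap (-1.63 ± 0.660, SE, log2 scale; limma adjusted p = 0.217). XLOC_015912, a long-run locus, was listed at 0 in all 4 sham libraries and in TBI 2, and at 3492, 42537 and 1772 FPKM in TBI 1, 3 and 4. It passed only without TBI 2, at a limma adjusted p of 0.0173 against 0.144 with all 8 libraries. TBI 2 was the only TBI library at 0, so leaving it out favours a smaller p by construction.

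**Figure D4:**
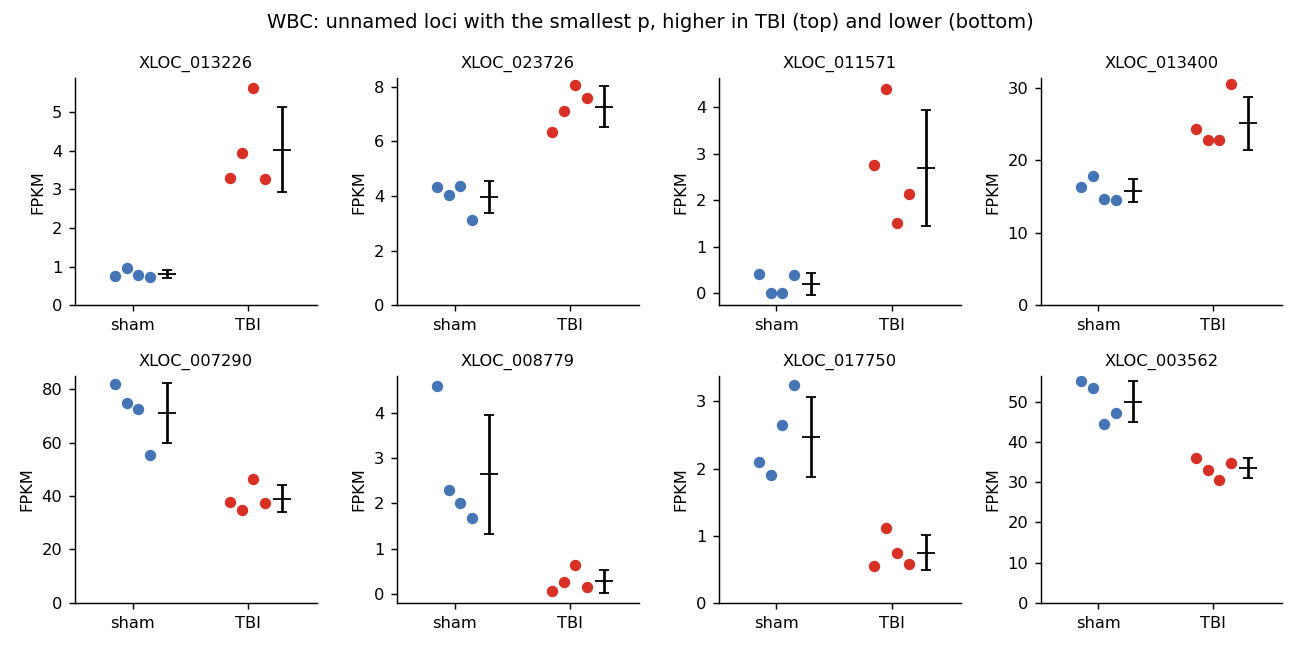
FPKM per library for the 4 WBC loci with the smallest p that were higher in TBI (top) and the 4 that were lower (bottom), with sham in blue, TBI in red and the mean ± SD (n = 4) as a black bar. The groups separate in all 8 panels, for example 0.731 to 0.955 against 3.25 to 5.62 FPKM at XLOC_013226, and 0 loci passed the adjusted threshold.

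Unnamed loci between symbols varied mostly apart from the gene row next to them, as neighbouring gene rows did from each other. Over the 8 libraries, the median Pearson's r of a locus with an adjacent symbol row was 0.05 in CA1 (2055 pairs) and 0.09 in WBC (1729 pairs), against 0.08 and 0.06 for adjacent symbol rows (6560 and 5071 pairs). An r over 0.9 was found in 0.535% and 1.10% of these pairs, against 0.595% and 1.24%. Adjacent unnamed loci in short runs had higher values, with a median r of 0.24 in CA1 (535 pairs) and 0.31 in WBC (676 pairs). Adjacent loci in long runs had 0.08 and 0.15. These are descriptions, and all pairs of a tissue share the same libraries. In CA1 93 loci at an unadjusted p under 0.05 had a tested symbol row beside them, and 0 of these rows were past the same p in the same direction, while 6 were in the opposite one. In WBC it was 61 of 272 (22.4%) in the same direction and 32 in the opposite one. For symbol rows the same-direction shares were 4.55% and 21.6%. Their opposite-direction shares were not worked out, so the 6 and the 32 have no background to be read against.

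Single unnamed rows that lie between the same 2 symbols in both tables allow a look across tissues. There were 444 such intervals. In 347 the row met the rule in both tissues, which is 9.12% of the CA1 loci and 8.30% of the WBC loci, in 20 it did so in CA1 alone and in 60 in WBC alone. The same interval does not show that the same transcript was assembled. Spearman's rho of the mean levels across the 347 intervals was 0.462, as a description. The tables were normalized separately, and 27 intervals were at least 4-fold higher in CA1 and 36 in WBC. The interval from Nfatc2 to Zfp93 held 307.3 FPKM in CA1 and 1.07 in WBC, Dpp6 to Cct8l1 held 111.2 and 4.92, and Spesp1 to Fem1b held 61.0 and 3.31. In the other direction, Ptpru to Oprd1 held 4.37 FPKM in CA1 and 794.7 in WBC, Ube2b to Hspa4 held 1.39 and 207.1, and Erap1 to Glrx held 5.08 and 182.0. These intervals were chosen after their values were seen.

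**Figure D5:**
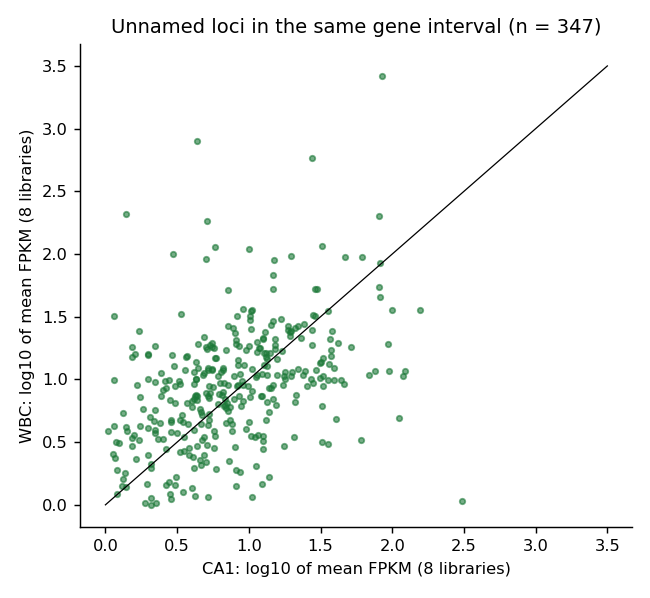
Log10 mean FPKM in WBC against that in CA1 for the 347 intervals whose single unnamed row met the rule in both tissues, 1 point per interval, with the line of equal values. The points scatter widely about the line (Spearman's rho 0.462), with 27 intervals at least 4-fold higher in CA1 and 36 in WBC.

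At these intervals the counts for TBI against sham were near those of all tested rows. An unadjusted p under 0.05 was found at 15 of the 347 in CA1 (4.32%, against 5.14% of all tested rows) and at 66 in WBC (19.0%, against 20.3%), with 3 in common. The interval from LOC100192314 to Sae1, which encodes a subunit of the SUMO-activating enzyme, was higher in TBI in both, at 0.23 in CA1 and 0.54 in WBC on the log2 scale. Tma16 to Msmo1 differed by -0.22 in CA1 and 0.17 in WBC, and Kcng4 to Cotl1 by -0.21 and 0.42. These 3 were picked by those p-values, and none passed after adjustment in either tissue. How many intervals would be in common by chance was not worked out. The groups did not overlap at 9 intervals in CA1 (2.59%, against 2.88%) and 43 in WBC (12.4%, against 14.2%), and at 0 intervals in both. Whether the effect of TBI differed between tissues at any interval was not tested.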

How the data were processed

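Poly-A RNA-seq of 16 libraries (4 sham and 4 TBI from CA1, and the same from WBC) was used. The authors deposited 1 table of FPKM values per tissue, with a status per value. Per the submitters' processing notes, TopHat, TopHat2, Bowtie, Bowtie2, Cufflinks and Cuffdiff were used with the rat build rn5. Not given in the sources used here are versions, the annotation, and how library size was normalized. FPKM holds no fragment counts, so depth is unknown and no counting interval is given.

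Rows with a mean of at least 1 FPKM and status OK in all 8 libraries (14637 in CA1, 13413 in WBC) were taken as log2(FPKM + 0.5), a scale that understates changes of low rows. Each table was fitted on its own with limma 3.58.1 in R 4.3.3 (lmFit, then eBayes with a mean trend). Tests were 2-sided, with Benjamini-Hochberg adjustment over all rows and a threshold of 0.05. Descriptions used Python 3.11.15, numpy 2.4.6, pandas 2.3.3 and matplotlib 3.10.9. The procedure was tested on simulated data.

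Locus numbers were checked against the RefSeq gene table of GRCr8, from which only names and gene order were used. Gene strands came from a reference list of promoters. A run of 30 or more consecutive unnamed rows counts as long. This limit was chosen after the data were seen.

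Loci named are, per tissue, the 6 highest means, the 8 smallest p in each direction, the 3 largest differences in each direction among loci at an unadjusted p under 0.05 without overlap, the 3 widest within-group SDs, the 3 on either side of the level threshold, and XLOC_003441. The loci and lists were chosen with earlier results of these data known.

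Alternatives changed the pseudocount (0.1 or 1), the level filter (none, or a mean of 5 FPKM), the scaling (median ratio or quantile), the limma variance model (no trend, robust, or weighted samples) and the threshold (0.1). Others added a replicate block or left out 1 library at a time. Leaving out long-run rows and keeping rows of every status were added after the data were seen.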

Additional observations from a re-analysis of the deposited data

Results flagged for a closer look

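A single library stood apart from the other 3 of its group, by Dixon's criterion for 4 samples, in 12 of 132 groups of 4 examined at the named loci (9.09%), where chance flags about 1 in 20. In CA1 these were XLOC_003441 in sham 3 (0.00348 FPKM, the others at 0), XLOC_003254 in TBI 1 (1.31), XLOC_016386 in TBI 4 (228.2), XLOC_009151 in sham 4 (43.3) and XLOC_017356 in sham 1 (1.46). In WBC they were XLOC_013081 in TBI 4 (14689), XLOC_011570 in sham 2 (7.56), XLOC_014133 in TBI 2 (24.2), XLOC_010412 in sham 1 (2471) and XLOC_017722 in TBI 4 (1.17). At the WBC locus XLOC_008157 both groups held such a library, sham 2 (0) and TBI 2 (7289). Loci with the widest spread were named for that spread, so their flags are no separate evidence of it.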

How the results depend on the processing

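XLOC_003441 passed under every alternative run, with limma adjusted p from 1.91e-08 to 0.00044376, the latter with the replicate block, where its difference stayed 4.40. Deviations of same-numbered sham and TBI libraries correlated at 0.21, 0.023, 0.051 and 0.24 in CA1. In WBC they correlated at 0.147, -0.0048, 0.022 and -0.0082. Not all were over 0.1, and the main fit used no pairing. With 4 libraries per group these values cannot settle whether equal numbers mark paired samples. They were taken within a tissue, so they do not bear on equal numbers across CA1 and WBC. A library correlated best with its own number for numbers 1 and 4 in CA1 and 1 in WBC. Among the 18 CA1 and 19 WBC loci whose difference is reported by the naming rule, none lost a call or changed sign under the alternatives run. Only XLOC_003441 had a call to lose. These loci were picked for small p or large differences in the same data, so a steady sign is no separate evidence of a difference. Of the loci named for level, spread or the level threshold alone, which carry no reported difference, 9 changed sign in at least 1 alternative.

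At an unadjusted p under 0.05, CA1 loci higher and lower were 67 and 52 with a minimum mean of 5 FPKM, 238 and 379 with sample weights, and 64 and 73 without long-run rows (60 without overlap). Leaving out 1 library gave 83 (without TBI 2) to 182 higher, 69 (without sham 2) to 353 lower (without sham 1; 74 without sham 3), 167 to 460 without overlap (460 without sham 1), 1 called higher throughout, 0 to 1 called lower, medians of -0.03 to -0.00 and a difference in share of the sum of -2.26 to 0.90 percentage points.

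In WBC these counts were 155 and 309 with a minimum mean of 5 FPKM (median -0.0657) and 205 and 242 without long-run rows (259 without overlap, median 0.0288). The median was 0.0335 after quantile normalization, against 0.0490 over all tested rows. With an adjusted p of 0.1, or with rows of every status, 1 locus was called higher, XLOC_013226 (limma adjusted p 0.0439 in the latter). That locus met the level rule only through its TBI libraries. Leaving out 1 library gave 274 to 403 higher, 364 to 488 lower, 587 to 754 without overlap, 0 to 1 called in each direction, medians of -0.01 to 0.01 and a share difference of -1.37 to 2.44 percentage points. Counts without overlap rise by construction with fewer libraries, and counts over fewer rows fall by construction. Apart from the scalings, the shares of all tested rows under these alternatives are not given here. The counts in both tissues therefore do not show whether a shift is particular to unnamed loci. For the other shifts the cause was not tested.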
